A study of Homo sapiens with 6 samples.

Results

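Nuclear receptors are transcription factors that read hormones, vitamins and lipids, and 25 of them together with 7 of their coregulators were followed here in H1299, a human cell line from a lung carcinoma. The 32 genes were chosen by name, and all 32 had an entry among the 19201 of the count table and passed the filter on low counts. The NR4A receptors were not included. Gene counts came from 3 libraries of wild-type H1299 and 3 libraries of H1299 labelled as overexpressing lncBCAS1-4_1, a long non-coding RNA. No empty vector is named for the wild-type controls, and the labels do not say whether the overexpressing cells were a clone or a pool, or whether replicates were separate cultures. An effect of the overexpression procedure and an effect of the RNA therefore cannot be told apart, and each p-value reflects only how much these libraries vary, which may be technical.

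Most receptors of this family share a DNA-binding domain made of a pair of zinc fingers and a ligand-binding domain that changes shape when a ligand is bound. Many, among them the vitamin D receptor VDR, bind DNA together with a retinoid X receptor (RXR). Without ligand, several of them hold corepressors such as NCOR1 on their target genes. With ligand, they exchange these for coactivators such as NCOA1 to NCOA3 and for MED1, through which the Mediator complex is reached. In lung epithelium and its tumours these receptors are known for roles in retinoid, glucocorticoid and vitamin D responses, and in lipid metabolism and the circadian clock.

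Total counts were 84531039 to 92780032 per library, and mitochondrial transcripts took 1.44% to 1.67% of the counts in the controls and 0.906% to 1.02% in the overexpressing libraries. Levels are in CPM, counts per 1000000 counts after scaling by the trimmed mean of M-values (TMM). The overexpressed RNA itself was not analysed here. The epithelial markers summed to 1260 to 1430 CPM in the controls and 1680 to 1890 CPM with overexpression. Of these, KRT8 and KRT18 were abundant (368 ± 18 and 956 ± 71 CPM in wild type; SD, n = 3) and KRT19 was at 0.184 ± 0.068 CPM (SD, n = 3). NKX2-1, a lung lineage factor, was at 0.674 ± 0.140 CPM in wild type and 0.431 ± 0.169 CPM with overexpression (SD, n = 3 each). EPCAM, CDH1 and the surfactant genes SFTPB and SFTPC had no entry under these names in the count table. Of the leukocyte, endothelial and fibroblast lists 6 of 11 genes were tested, with summed levels of 69.8 to 74.2, 0.356 to 0.697 and 1.99 to 2.71 CPM in wild type and 79.3 to 88.0, 0.539 to 0.901 and 1.94 to 3.23 CPM in the overexpressing libraries. The leukocyte sum was almost wholly the lysosomal gene CD68. The part of any of these in the results below was not tested.

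The libraries also differed in how counts depended on the GC content of a transcript, the share of its bases that are G or C. Per 10 percentage points of GC, the controls deviated by -0.17, -0.17 and -0.069 on the log2 scale and the overexpressing libraries by 0.16, 0.18 and 0.072, in replicate order. Every value below is therefore given from a fit of the counts as they stand and, where named so, from the same fit after a correction of each library for GC content and transcript length.

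The receptors show how far GC content can differ between related genes. NR2F6 and NR2F2 encode chicken ovalbumin upstream promoter transcription factors, and NR2F2 was lower in both fits while NR2F6 was lower after the correction alone. The stretch that codes for their zinc fingers, from the codon of the first zinc-binding cysteine to that of the last, is shown because the pair is alike there and differs in GC content outside it. Both are written 5′ to 3′ from the GENCODE 44 canonical transcripts (GRCh38), with capitals at the bases that differ within the pair.
NR2F6: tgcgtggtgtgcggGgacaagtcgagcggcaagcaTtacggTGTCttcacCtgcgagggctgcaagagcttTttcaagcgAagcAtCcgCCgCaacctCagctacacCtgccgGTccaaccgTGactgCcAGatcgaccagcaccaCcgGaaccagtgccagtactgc
NR2F2: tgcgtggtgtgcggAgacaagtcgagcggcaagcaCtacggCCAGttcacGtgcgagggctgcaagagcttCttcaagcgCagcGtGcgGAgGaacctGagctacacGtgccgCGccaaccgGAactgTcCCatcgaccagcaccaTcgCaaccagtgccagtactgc
The stretch is 168 bases long and runs from coding base 166 to 333 in NR2F6 and from 235 to 402 in NR2F2. Of 56 codons, 51 give the same residue, while 25 bases differ, 18 of them at the third base of a codon. The GC content of the stretch is 60.7% in NR2F6 and 62.5% in NR2F2. Over the whole transcript it is 71.2% in NR2F6 and 49.8% in NR2F2, whose part after the coding sequence holds 35.5%. By the same cysteine spacing the domain was found in 22 of the 25 receptors, with a GC content of 38.7% to 66.1%.

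Most of these genes were well expressed in H1299, and their levels spanned a wide range. Per kilobase of canonical transcript, NR2F6 was highest in the controls at 44.3 ± 2.6 CPM per kb, followed by the estrogen-related receptor gene ESRRA at 28.1 ± 0.8, NR1H2 at 23.1 ± 2.0 and the retinoic acid receptor RARG at 17.4 ± 0.1 (SD, n = 3 each). VDR held the seventh place at 13.9 ± 1.0 CPM per kb (SD, n = 3). RXRB was at 14.2 ± 0.3 and RXRA at 1.11 ± 0.03 CPM per kb (SD, n = 3 each), so RXRB was the more abundant of these RXR genes. RXRG had no entry under this name in the count table. Among the coregulators NCOA6 (16.9 ± 0.6), NCOR1 (12.02 ± 0.40) and MED1 (8.99 ± 0.40 CPM per kb; SD, n = 3 each) stood highest. NR5A2, RORA, RARB and THRB were at 0.157 CPM per kb or less in the controls. RARB and THRB had at most 29 counts in any library. The SE of their log2 fold changes was 0.81 and 0.77, so even differences larger than the SE could go uncalled at this depth.

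**Figure D1:**
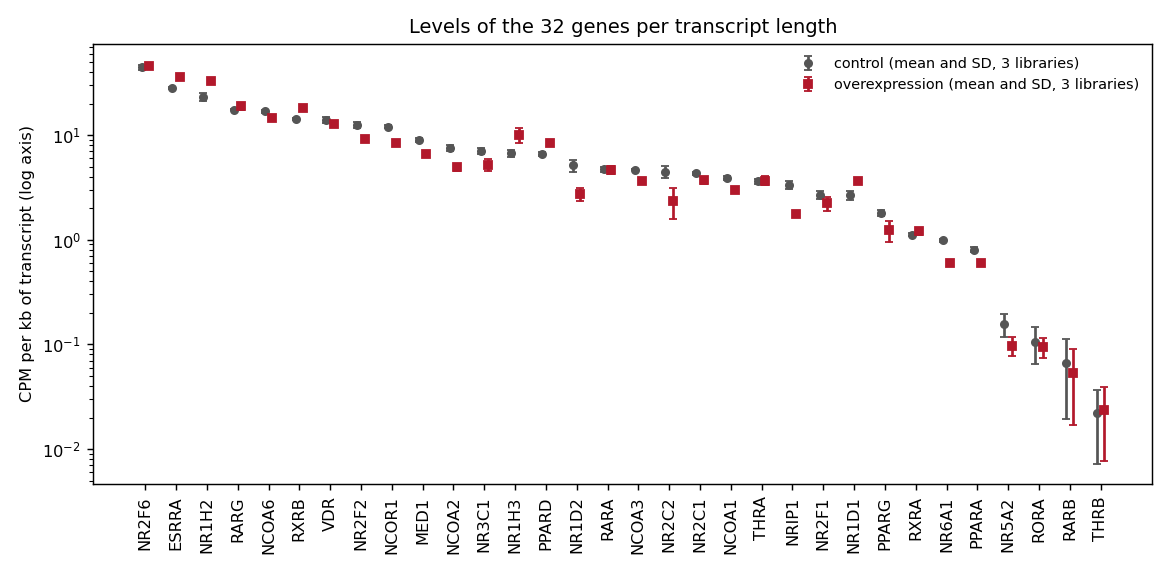
Level of each of the 32 genes in CPM per kilobase of canonical transcript on a log axis, as the mean and SD of 3 control (grey circles) and 3 overexpressing libraries (red squares), ordered by the control mean. NR2F6 is highest and NR5A2, RORA, RARB and THRB form the low end.

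As fitted, 6 of the 32 genes were higher and 14 lower in the overexpressing libraries by edgeR's quasi-likelihood test at an adjusted p under 0.05. Of all 19101 entries tested, 18.3% were higher and 19.7% lower, 38.0% in all. The median log2 fold change of the 32 was -0.25, and that of all entries -0.0041. Of the 24 members with a mean log2 CPM above 3, 6 were higher (25.0%) and 11 lower (45.8%), 70.8% together. Among all entries at that level 29.3% were higher and 31.2% lower, 60.4% together, so the share of called members was not far from that of other well expressed genes. The 6 higher genes were RXRB, PPARD, NR1H2, NR1H3, NR1D1 and ESRRA. All 7 coregulators were lower, together with 7 receptors. Of the 20 differences, 15 were under 1.5-fold, and 9.04% of all entries were called beyond that fold. The groups did not overlap in 22 of the 32 genes, and in 50.7% of all entries.

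The direction of these calls ran with base composition. The 6 higher genes had transcripts of 58.4% to 63.8% GC and the 14 lower ones of 38.3% to 50.6%. Of the 12 members with 55% GC or more none was lower, and of the 20 below 55% none was higher. Among all entries with a mean log2 CPM above 3, 63.1% were higher and 2.57% lower at 55% GC or more, and 14.99% were higher and 43.3% lower below it. Across the 32 members, which share the same libraries, the Spearman correlation of fold change and GC content was 0.65. For all entries with a mean log2 CPM above 3 it was 0.72. After the correction the values were 0.066 and 0.021, a drop that the correction brings about by design.

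**Figure D2:**
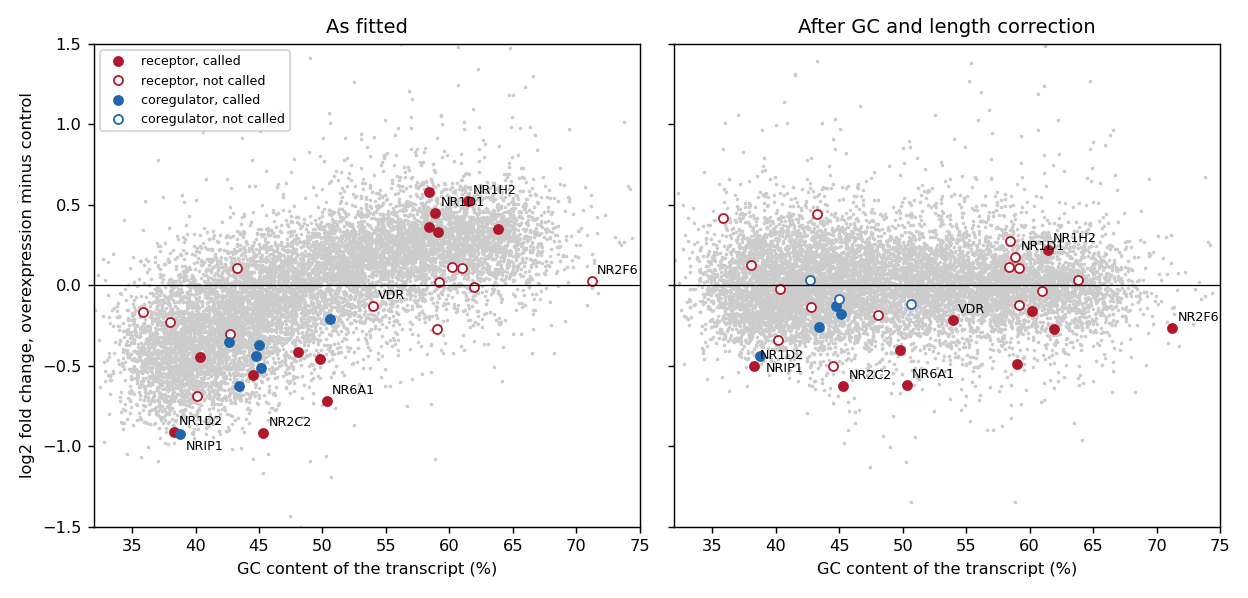
Log2 fold change against the GC content of the transcript for the 32 members (red, receptors; blue, coregulators; filled, adjusted p under 0.05) over all entries with a mean above 8 CPM (grey; entries beyond 1.5 or beyond the GC range drawn are off the axes), as fitted on the left and after the GC and length correction on the right. On the left the higher members lie at 58.4% GC or more and the lower ones at 50.6% or less, and on the right NR1H2 is the only filled point above 0.

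After the GC and length correction 1 member was higher and 13 were lower, against 11.5% and 11.0% of all entries (22.6% in all). NR1H2 was the higher one. NR1D2, NR2C2, NR2F2, NR6A1, NCOA2, MED1, NCOR1 and NRIP1 were lower in both fits. Lower after the correction alone were RARA, RARG, VDR, NR2F1 and NR2F6, and 11 genes called as fitted no longer passed. Some of this depends on the length term: with GC content alone corrected, PPARA, THRA, NCOA1 and NCOA6 were lower as well, which made 17. With both GC content and length corrected, the median log2 fold change of the 32 was -0.13, and that of all entries -0.012. In that same fit, of the 24 members with a mean log2 CPM above 3, 1 was higher and 12 were lower, 54.2% together. Among all entries at that level 19.0% were higher and 17.8% lower, 36.8% together. The groups did not overlap in 18 of the 32 genes in corrected CPM, and in 40.1% of all entries. Beyond 1.5-fold lay NR2C2 and NR6A1, and 3.27% of all entries.

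**Figure D3:**
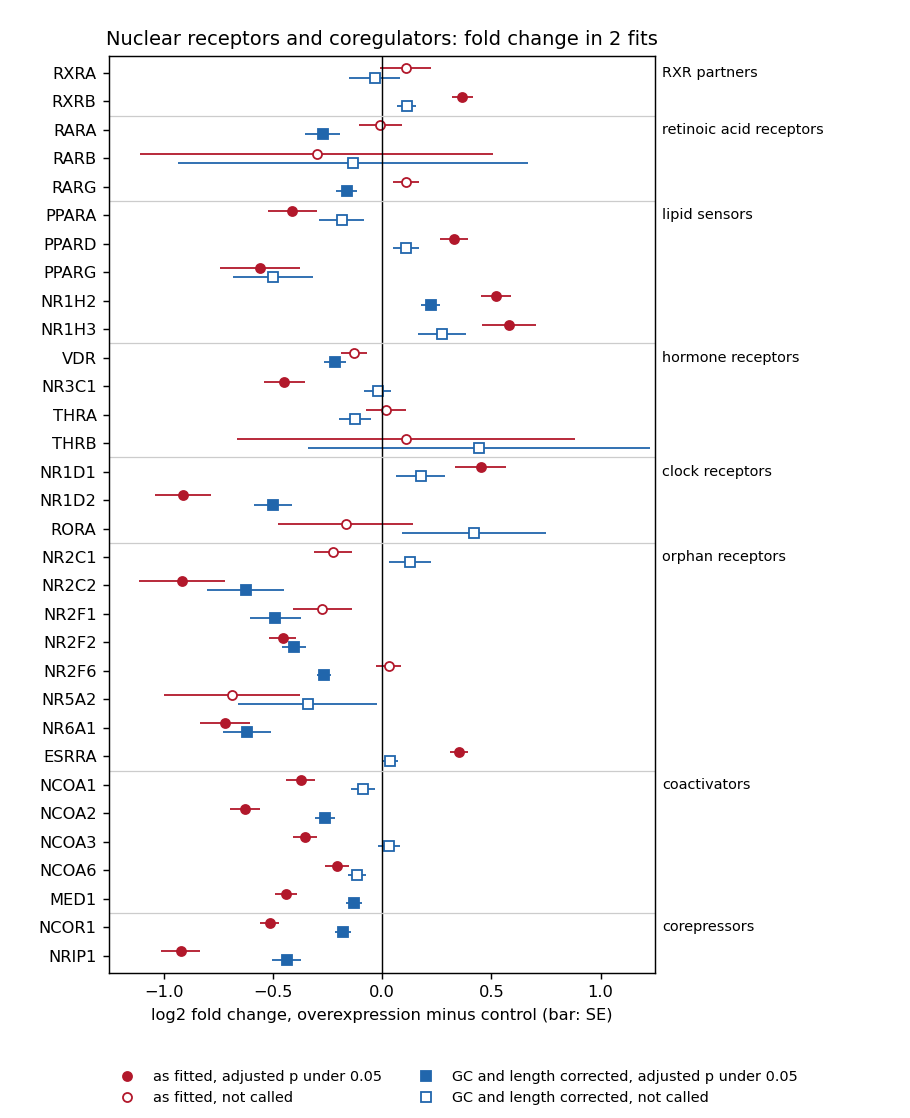
Log2 fold change (overexpression minus control) with its SE for the 32 genes by role, as fitted (red circles) and after the GC and length correction (blue squares), with filled symbols for an adjusted p under 0.05. The 6 rises and 14 falls as fitted become 1 rise, of NR1H2, and 13 falls after the correction.

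Of the RXR genes, the shared partners of VDR and several other receptors, RXRB was called as fitted and RXRA was not, and the difference between them was not tested. RXRB was at 40.1, 40.5 and 42.0 CPM in wild type and 53.9, 51.6 and 52.4 CPM in the overexpressing libraries. The groups did not overlap, and the log2 fold change was 0.37 (SE 0.05, adjusted p = 0.00056 by edgeR), but 0.11 after the correction (adjusted p = 0.088). RXRA was at 5.96, 6.32 and 6.22 CPM against 7.20, 6.08 and 6.65 CPM. Its groups overlapped, with log2 fold changes of 0.11 as fitted and -0.035 corrected (edgeR adjusted p = 0.53 and 0.87). Since RXRB shares 361 exon bases with the opposite-strand zinc transporter gene SLC39A7, which was higher by a log2 fold change of 0.31, and the strandedness of the libraries is not given in the sources used here, their reads cannot be fully told apart.

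VDR binds active vitamin D and induces CYP24A1. Its levels were 61.3, 62.2 and 69.4 CPM in wild type and 61.8, 57.0 and 57.4 CPM in the overexpressing libraries, and the groups overlapped. In the same libraries CYP24A1 rose from 0.778 ± 0.158 to 2908 ± 591 CPM (SD, n = 3 each), a change of 11.87 on the log2 scale. Whether reads of the overexpressed RNA were counted as CYP24A1 was not tested, nor was a link of this change to VDR. The VDR log2 fold change of -0.13 did not pass (SE 0.06, edgeR adjusted p = 0.13), and passed with scaling by library size alone (-0.18, adjusted p = 0.032). Corrected levels were 63.7, 64.7 and 70.3 against 60.4, 54.1 and 56.6 CPM, which did not overlap, and the corrected log2 fold change of -0.22 passed (SE 0.05, edgeR adjusted p = 0.016). Without overexpressing library 2 it was -0.18 (adjusted p = 0.054). VDR is on chromosome 12 (minus strand, 47841537 to 47943048, GRCh38).

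Among the other hormone receptors, the glucocorticoid receptor NR3C1 was at 49.5, 50.4 and 43.9 CPM in wild type and 31.8, 33.5 and 40.2 CPM in the overexpressing libraries. It fell by 0.45 on the log2 scale as fitted (SE 0.09, edgeR adjusted p = 0.0047), with no overlap. After the correction its groups overlapped and the value was -0.021 (adjusted p = 0.85), at a transcript GC content of 40.4%. The thyroid hormone receptors THRA and THRB had log2 fold changes of 0.019 and 0.11 as fitted and -0.12 and 0.44 corrected, and neither passed in either fit. With GC content alone corrected, THRA was lower (-0.24, edgeR adjusted p = 0.044).

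The retinoic acid receptors, which pair with RXR to read all-trans retinoic acid, did not pass as fitted. RARG was at 50.9 ± 0.3 CPM in wild type and 54.98 ± 4.23 in the overexpressing libraries, and RARA at 15.4 ± 1.0 and 15.3 ± 1.4 CPM (SD, n = 3 each). After the correction RARG (-0.16) and RARA (-0.27) were lower, with edgeR adjusted p of 0.037 and 0.036. The RARG call was lost without control library 1 or 2 or overexpressing library 1 or 3, and the RARA call without any library other than overexpressing library 2, with adjusted p up to 0.12 and 0.11. In the opposite direction, RARG was called higher as fitted without overexpressing library 3 (0.17, edgeR adjusted p = 0.036). RARA shares 556 exon bases with the antisense gene RARA-AS1. RARB, itself a classic retinoic acid target, was at 0.208 ± 0.148 and 0.168 ± 0.115 CPM (SD, n = 3 each).

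Of the lipid-sensing receptors, 3 were higher and 2 lower as fitted, against 18.3% and 19.7% of all entries. Among well expressed entries the shares were 29.3% and 31.2%. NR1H2 and NR1H3 encode the oxysterol receptors LXR beta and LXR alpha, which switch on cholesterol efflux genes. NR1H2 was at 53.8, 52.1 and 61.3 CPM in wild type and 84.8, 79.3 and 76.05 CPM in the overexpressing libraries. Every overexpressing library lay above every control, with a log2 fold change of 0.52 (SE 0.07, edgeR adjusted p = 0.00058). Corrected, it was 61.4, 59.1 and 64.7 against 74.7, 69.9 and 71.5 CPM, still apart, with a log2 fold change of 0.22 (SE 0.04, edgeR adjusted p = 0.0060). It was called as higher in all 22 other settings tried. NR1H2 (ENSG00000131408) is on chromosome 19 (plus strand, 50329653 to 50383388). The opposite-strand gene NAPSA, which had no entry in the count table, shares 22.1% of the exon bases of NR1H2.

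NR1H3 was at 11.9, 13.4 and 11.9 CPM in wild type and 21.8, 18.01 and 15.9 CPM in the overexpressing libraries, a log2 fold change of 0.58 (SE 0.12, edgeR adjusted p = 0.0052). Its overexpressing libraries were spread more widely than its controls, and after the correction the groups overlapped (0.27, adjusted p = 0.11). Among the peroxisome proliferator-activated receptors, which bind fatty acids, PPARD had a log2 fold change of 0.33 and PPARA one of -0.41, both called by edgeR as fitted (adjusted p = 0.0034 and 0.018). Neither passed after the correction (0.11 and -0.19), but with GC content alone corrected PPARA was lower (-0.39, adjusted p = 0.026). PPARG was at 3.40, 3.23 and 2.99 CPM in wild type and 2.69, 2.08 and 1.76 CPM in the overexpressing libraries. Its groups did not overlap in either fit, at -0.56 as fitted (SE 0.18, edgeR adjusted p = 0.039) and -0.50 corrected (adjusted p = 0.080). The call as fitted was lost without any one library other than overexpressing library 1, with adjusted p of up to 0.11. The PPARA call was lost without control library 1 or 2 or overexpressing library 1 or 2 (adjusted p up to 0.064).

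NR1D1 and NR1D2 encode the REV-ERB proteins, heme-binding repressors of the circadian clock. Of the clock receptors, 1 was higher and 1 lower as fitted, against 18.3% and 19.7% of all entries. Only NR1D2 passed after the correction. NR1D1 was at 7.70, 6.57 and 6.60 CPM in wild type and 9.40, 10.1 and 9.05 CPM in the overexpressing libraries, and the groups did not overlap. The log2 fold change was 0.45 as fitted (SE 0.11, edgeR adjusted p = 0.013; 0.051 without control library 2) and 0.18 corrected, when the groups overlapped (adjusted p = 0.32). Its exons overlap those of THRA on the opposite strand over 473 bases, 17.99% of the exon bases of NR1D1, so reads of the pair cannot be fully told apart. NR1D2 was at 28.1, 29.4 and 22.9 CPM in wild type and 13.6, 12.5 and 16.6 CPM in the overexpressing libraries. It fell by 0.91 on the log2 scale (SE 0.13, edgeR adjusted p = 0.00074). Corrected levels were 23.7, 24.5 and 21.2 against 15.8, 15.4 and 17.9 CPM, still apart, with a log2 fold change of -0.50 (SE 0.09, edgeR adjusted p = 0.0031). NR1D1 is on chromosome 17 (minus strand, 40092793 to 40100589), and the transcripts of NR1D1 and NR1D2 have 58.9% and 38.3% GC. RORA, which activates through the sites that REV-ERB proteins repress, was at 1.14 ± 0.44 and 1.02 ± 0.22 CPM (SD, n = 3 each) and did not pass in either fit.

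Of 8 orphan receptors, named so because they were found without a known ligand, 1 was higher and 3 were lower as fitted. After the correction 5 were lower. The shares of all entries were 18.3% higher and 19.7% lower as fitted, and 11.0% lower corrected. Among well expressed entries they were 29.3%, 31.2% and 17.8%. NR2C2, which encodes the testicular receptor TR4, was at 42.0, 38.5 and 31.9 CPM in wild type and 15.7, 16.5 and 27.3 CPM in the overexpressing libraries. Overexpressing library 3 lay much nearer the controls than the other two, as it lay nearest in most of the genes drawn by library. The log2 fold change was -0.92 as fitted (SE 0.20, edgeR adjusted p = 0.0058) and -0.63 corrected (SE 0.18, edgeR adjusted p = 0.030). The corrected call was lost without control library 1 or 2 or overexpressing library 1 or 2, with adjusted p from 0.081 to 0.10. It was also lost with replicate number as a further term (edgeR adjusted p = 0.053). NR2C2 is on chromosome 3 (plus strand, 14947583 to 15053600), where 60.5% of its exon bases are shared with the opposite-strand mitochondrial ribosomal gene MRPS25, which had a log2 fold change of 0.058 (edgeR adjusted p = 0.60). MRPS25 was at 61.5 ± 3.5 CPM in wild type (SD, n = 3), and reads of the pair cannot be fully told apart. The NR2C2 relative NR2C1, at 17.5 ± 0.6 and 14.9 ± 1.1 CPM (SD, n = 3 each), did not pass (-0.23 as fitted, edgeR adjusted p = 0.068, and 0.13 corrected). Without the correction it was lower in 5 of 13 other settings, with adjusted p of 0.028 by library size alone, 0.048 by DESeq2, 0.0498 by limma-voom, 0.048 with a stricter filter and 0.045 without overexpressing library 1.

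NR6A1, the germ cell nuclear factor that represses pluripotency genes, was at 7.18, 6.60 and 7.06 CPM in wild type and 4.28, 4.23 and 4.14 CPM in the overexpressing libraries. The spread within each group was small beside the gap between them. It fell by 0.72 on the log2 scale (SE 0.11, edgeR adjusted p = 0.0013), and by 0.62 after the correction (SE 0.11, edgeR adjusted p = 0.0037). NR6A1 is on chromosome 9 (minus strand, 124517275 to 124771311), and the GC content of its transcript is 50.3%.

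NR2F2, a regulator of vessel and organ development, was at 63.2, 63.4 and 70.8 CPM in wild type and 45.4, 47.5 and 51.0 CPM in the overexpressing libraries. It fell by 0.46 as fitted and by 0.40 after the correction (SE 0.06 in both, edgeR adjusted p = 0.00069 and 0.0011). NR2F2 is on chromosome 15 (plus strand, 96325938 to 96340263). Its relatives NR2F1 and NR2F6 did not pass as fitted (-0.27 and 0.029) and were lower after the correction (-0.49 and -0.27, edgeR adjusted p = 0.015 and 0.00045). NR2F6 was at 102, 102 and 113 CPM against 113, 109 and 101 CPM, with groups that overlapped. Its corrected levels were 118, 115 and 118 against 98.8, 97.3 and 95.5 CPM, so its direction rests on the correction at the highest GC content of the 32 genes. The NR2F1 call was lost without overexpressing library 1 (adjusted p = 0.053), and without overexpressing library 2 it passed as fitted too (-0.41, adjusted p = 0.039). ESRRA, a driver of mitochondrial genes, was at 63.5, 62.3 and 65.8 CPM against 82.8, 81.2 and 80.7 CPM. Its groups stood well apart as fitted, with a log2 fold change of 0.35 (SE 0.04, edgeR adjusted p = 0.00039), and overlapped after the correction, at 0.036 (adjusted p = 0.55). It shares 284 exon bases with TRMT112 on the opposite strand, which had a log2 fold change of 0.30. NR5A2, at 0.779 ± 0.195 and 0.483 ± 0.100 CPM (SD, n = 3 each), did not pass.

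All coactivators of the set were lower as fitted. Among entries with a mean log2 CPM above 3, 31.2% were lower, and 43.3% of those below 55% GC. The acetyltransferase-recruiting coactivator NCOA2 was at 63.2, 68.6 and 59.9 CPM in wild type and 39.9, 39.3 and 44.9 CPM in the overexpressing libraries, and fell by 0.63 on the log2 scale (SE 0.07, edgeR adjusted p = 0.00030). After the correction it was still lower (-0.26, SE 0.05, adjusted p = 0.0034). Its paralogues NCOA1 and NCOA3 fell by 0.37 and 0.35 as fitted (edgeR adjusted p = 0.0022 and 0.0010) and had corrected values of -0.087 and 0.032, which did not pass. With GC content alone corrected, NCOA1 was lower (-0.23, edgeR adjusted p = 0.015) and NCOA3 had a value of -0.11 (adjusted p = 0.14), so these values depend on the length term. NCOA3 showed little spread, at 37.0 ± 0.4 and 29.0 ± 0.2 CPM (SD, n = 3 each), and yet its corrected groups overlapped. The 3 paralogues have transcripts of 42.7% to 45.0% GC.

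MED1, the Mediator subunit that receptors contact, was at 76.9, 71.7 and 70.9 CPM in wild type and 52.1, 53.9 and 55.7 CPM in the overexpressing libraries. It fell by 0.44 on the log2 scale (SE 0.05, edgeR adjusted p = 0.00034). The corrected value was -0.13 (SE 0.04, edgeR adjusted p = 0.035), a call that was lost without any one library other than control library 2, with adjusted p of up to 0.13. NCOA6, a scaffold for histone methyltransferases, was the most abundant coactivator by CPM per kb, at 120 ± 4 and 103 ± 6 CPM (SD, n = 3 each). It fell by 0.21 as fitted (edgeR adjusted p = 0.014; 0.059 without control library 2) and had a corrected value of -0.12 (adjusted p = 0.088), or -0.27 with GC content alone corrected (adjusted p = 0.0028).

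Both corepressors were lower in both fits. Among well expressed entries 31.2% were lower as fitted and 17.8% after the correction. NCOR1, which brings the deacetylase HDAC3 to unliganded receptors, was at 133, 129 and 124 CPM in wild type and 91.0, 87.2 and 91.8 CPM in the overexpressing libraries. The groups did not overlap, and it fell by 0.52 on the log2 scale (SE 0.04, edgeR adjusted p = 0.00013), or by 0.18 after the correction (SE 0.04, adjusted p = 0.0074). NRIP1, which represses metabolic genes at liganded receptors, was at 28.0, 25.9 and 23.9 CPM in wild type and 13.3, 12.9 and 14.8 CPM in the overexpressing libraries. It fell by 0.92 on the log2 scale, the largest change of the 32 as fitted (SE 0.09, edgeR adjusted p = 0.00021). Corrected levels were 23.1, 21.0 and 21.6 against 15.9, 16.2 and 16.4 CPM, with a log2 fold change of -0.44 (SE 0.07, edgeR adjusted p = 0.0017). NRIP1 (ENSG00000180530) is on chromosome 21 (minus strand, 14961235 to 15065936), and its transcript has 38.8% GC. NR1H2, NR1D2, NR2F2, NR6A1, NCOA2, NCOR1 and NRIP1, 7 members in all, kept their direction and their call in all 22 other settings.

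**Figure D4:**
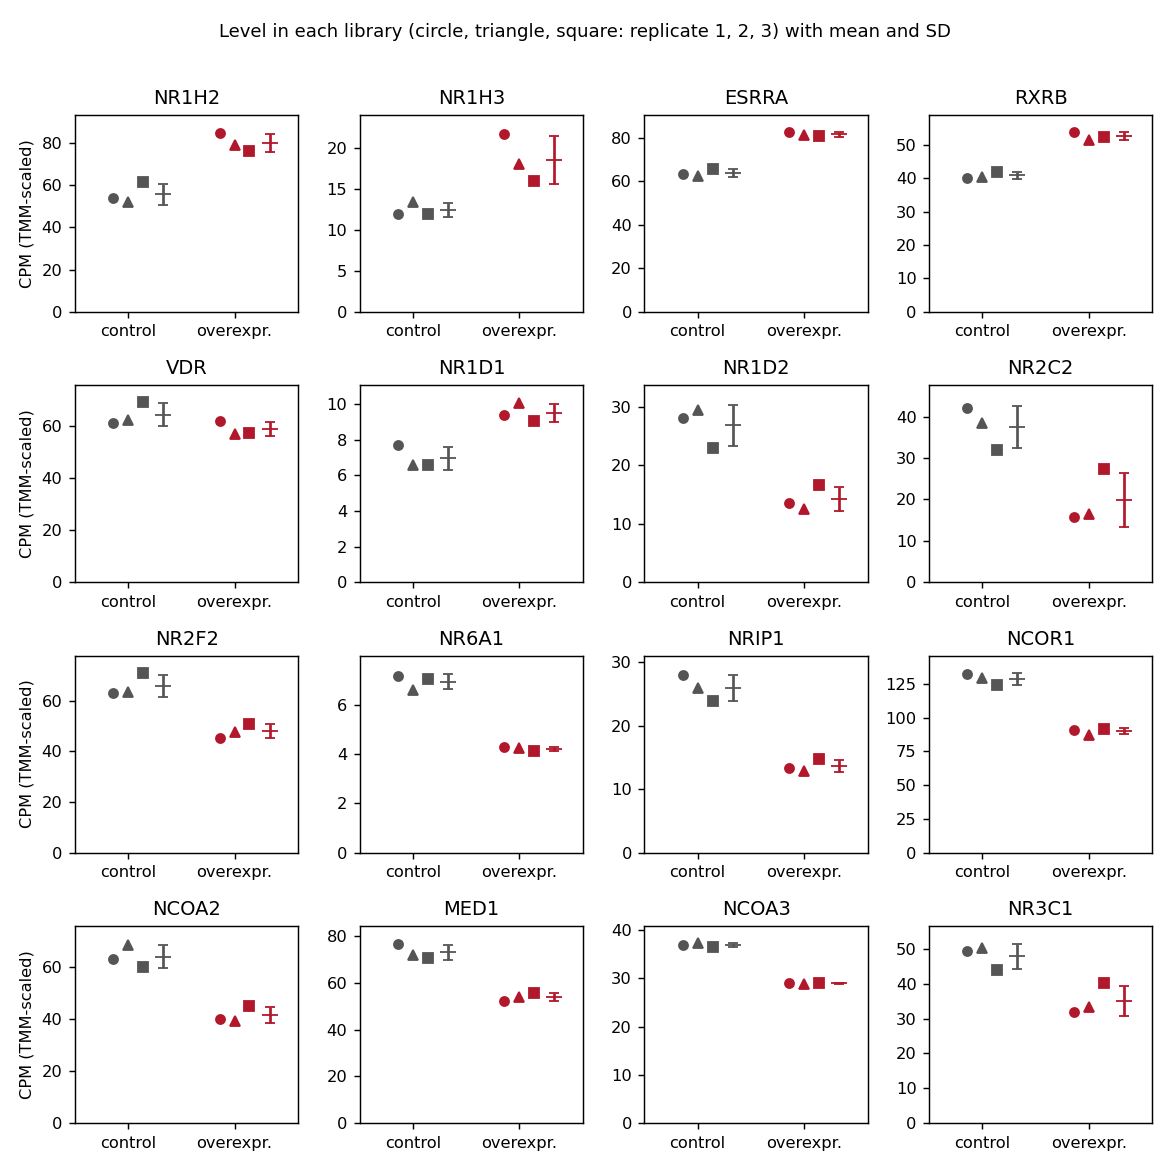
CPM by TMM-scaled library size in each of the 3 control (grey) and 3 overexpressing libraries (red) for 16 members, with the mean and SD beside the points and axes that start at 0. The groups do not overlap except for VDR, and overexpressing library 3 (square) lies nearest the control mean in 12 of the 16.

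By the same test, other coregulators, from a list of 21 that does not overlap the members, were lower in 11 cases and higher in 2 as fitted, and lower in 11 and higher in none after the correction, with 5 lower in both. Of all entries 19.7% were lower as fitted and 11.0% corrected, and among well expressed entries 31.2% and 17.8%. The median log2 fold change was -0.16 as fitted and -0.15 corrected. The acetyltransferase KAT2B fell by 0.83, the NCOR1 complex subunit TBL1XR1 by 0.85 and the histone methyltransferase NSD1 by 0.67 on the log2 scale, and all were lower after the correction (-0.52, -0.32 and -0.40). The arginine methyltransferase PRMT1 and the NCOR1 complex subunit GPS2 were higher as fitted (0.17 each) and lower after the correction (-0.15 and -0.14), so their direction depends on it. Of 10 other Mediator subunits and kinase module genes, 4 were higher and 5 lower as fitted, and 2 higher and 1 lower corrected. The shares of all entries were 18.3% and 19.7% as fitted and 11.5% and 11.0% corrected. Among well expressed entries they were 29.3% and 31.2% as fitted and 19.0% and 17.8% corrected. MED25, MED24 and MED16 had log2 fold changes of 0.27, 0.26 and 0.31, MED13, the cyclin CCNC and MED14 of -0.65, -0.48 and -0.31, and of these only CCNC (-0.19) passed after the correction.

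Genes that the receptors are known to regulate moved in several directions. Of 6 tested glucocorticoid receptor targets 3 were higher and none lower as fitted, and 5 were higher corrected. Background shares of higher entries were 18.3% and 11.5%, or 29.3% and 19.0% among entries with a mean log2 CPM above 3. The phosphatase DUSP1 rose by 1.51 on the log2 scale, PER1, also on the clock list, by 0.90 and the kinase SGK1 by 0.55, with corrected values of 1.27, 0.71 and 0.59. Each of these also responds to signals other than glucocorticoids, and FKBP5, a widely used readout of the receptor, had values of -0.058 as fitted and 0.14 corrected, the latter past the threshold (edgeR adjusted p = 0.37 and 0.011). Of 8 tested retinoid targets and carriers 4 were higher and 1 lower as fitted, and 2 higher and 1 lower corrected, against 18.3% and 19.7% of all entries as fitted and 11.5% and 11.0% corrected. The higher ones included the transglutaminase TGM2 (0.76, corrected 0.68), PLAAT4 (1.78, corrected 1.54) and the retinol transporter STRA6 (1.05, corrected 0.75 and not called). PLAAT4 and STRA6 were low in level. In wild type they were at 0.208 ± 0.029 and 0.532 ± 0.201 CPM (SD, n = 3 each). With overexpression they were at 0.717 ± 0.193 and 1.10 ± 0.18 CPM (SD, n = 3 each). The retinoic acid carrier CRABP2 fell by 0.37 (corrected -0.64). The retinoic acid hydroxylases CYP26A1 and CYP26B1 stayed at or below 0.227 CPM on average in both groups and did not pass.

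Of 6 tested LXR targets 1 was higher and 2 lower as fitted, and 2 higher and 1 lower corrected. Of all entries, 18.3% were higher and 19.7% lower as fitted, and 11.5% and 11.0% corrected. The lipoprotein gene APOE rose by 0.62 (corrected 0.27), while the cholesterol exporter ABCA1 fell by 0.68 (corrected -0.36, not called) and the lipogenic factor SREBF1 by 0.17 (corrected -0.35). The LXR genes and the listed LXR targets were thus not all changed in 1 direction. Of 7 tested PPAR targets 4 were higher and none lower, and 3 were higher corrected, where 18.3% and 11.5% of all entries were higher. Among well expressed entries the shares were 29.3% and 19.0%. The mitochondrial fatty acid enzymes ACADVL and CPT1A rose by 0.63 and 0.41 (corrected 0.35 and 0.44), and ANGPTL4 by 0.43 (corrected 0.096, not called). Neither tested thyroid hormone gene passed.

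Of 14 tested clock genes, 3 were higher and 5 lower as fitted, and 3 higher and 4 lower corrected. The share of higher clock genes as fitted is close to the 18.3% of all entries. For the other counts, the shares of all entries were 19.7% lower as fitted, and 11.5% higher and 11.0% lower corrected. Well expressed entries were higher in 29.3% and lower in 31.2% as fitted, and in 19.0% and 17.8% corrected. PER1, the repressor BHLHE40 and the activator BMAL1 rose by 0.90, 0.91 and 0.36 (corrected 0.71, 0.85 and 0.42). PER3 and the transcription factor TEF fell by 0.75 in both cases (corrected -0.54 and -0.90), and CLOCK by 0.71 (corrected -0.16, not called). BMAL1 is a textbook target that REV-ERB proteins repress. NR1D2 was lower in both fits, while the other REV-ERB gene, NR1D1, was higher as fitted and not called after the correction. The labels give no time of harvest, and any link between these values was not tested.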

How the data were processed

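Per the labels' protocols, the authors used fastp for trimming, HISAT2 for alignment to GRCh38, StringTie for assembly and abundance, and edgeR. Not given in the sources used here are tool versions, library kit, strandedness and the counting step. The authors' deposited table holds whole-number counts per gene, unnormalized, in 1 column per library. The tests used edgeR 4.0.16 in R 4.3.3 (quasi-likelihood F-test, TMM, group as the only term), on the 19101 of 19201 entries that filterByExpr kept with min.count 10 and min.total.count 15. Benjamini-Hochberg adjustment ran over all of these, with a threshold of 0.05. The SE was taken as the absolute log2 fold change over the root of F.

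For the correction, natural splines (5 degrees of freedom each) on GC content and log2 length of the canonical transcript (GENCODE 44, 99.3% of entries matched) were fitted to the deviations of each library over entries with a mean log2 CPM above 1, and entered as offsets. Both fits were run on simulated counts, without and with a linear GC trend that was the same in each overexpressing library. No length trend was simulated, so the removal of such a trend was not tested. The members, gene lists, correction and alternatives were chosen with earlier results of these data known. The text names every member, with values in each library for VDR, RXRA, RXRB, the 12 other called members with the largest fold change and those called in both fits. It names up to 3 higher and 3 lower genes of each related list by the smallest p. Library values of NR2F6 and ESRRA, and the values of FKBP5, CYP26A1, CYP26B1, NR0B1 and the overlapping genes, were added after they were seen. Zinc finger stretches were found by the spacing of 8 cysteines and overlaps of exons in GENCODE 44. DESeq2 1.42.0 and limma 3.58.1 served as alternatives.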

Additional observations from a re-analysis of the deposited data

How the results depend on the processing

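Other scalings, filters and tools (DESeq2, limma-voom) left the members at 6 higher and 14 to 16 lower. Scaling by library size alone gave 2908 entries higher and 4274 lower. The GC and length correction gave 2206 entries higher and 2110 lower, with 1 member higher and 13 lower, and correction for GC content alone, chosen after seeing the data, gave 2558 and 2460, with 1 and 17. The 4 members lower only with GC content alone corrected, compared with the full correction, were PPARA, THRA, NCOA1 and NCOA6. With each library left out in turn, 2586 to 3439 entries were higher and 2867 to 3730 lower as fitted, with 5 to 7 members higher and 11 to 14 lower. With the correction these were 1540 to 1942 and 1369 to 1815 entries, with 1 to 2 members higher and 9 to 11 lower.

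The labels do not say whether the replicate numbers pair the libraries. Deviations from the group means correlated at -0.44 to -0.074 for same-numbered libraries and at -0.15 to 0.36 for others. With 3 libraries per group these deviations cancel out within each group, so the correlations cannot decide whether libraries were paired. A replicate block gave 2681 entries higher and 3014 lower, with 6 and 13 members, and with the correction 1736 and 1617, with 1 and 10. With the block, PPARA was no longer called as fitted (edgeR adjusted p = 0.060). NR2C2, RARA and MED1 were no longer called after the correction (edgeR adjusted p = 0.053, 0.075 and 0.080).

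The correction reversed some log2 fold changes. With and without the replicate block, NR2F6 was then -0.27, RARG -0.16, PRMT1 -0.15, GPS2 -0.14, MED25 -0.045, NCOA3 0.032 and MED14 0.12. With GC content alone NR2F6 was -0.26, RARG -0.16, PRMT1 -0.069, GPS2 -0.056, MED25 -0.024 and THRA -0.24, while NCOA3 (-0.11) and MED14 (-0.012) kept their sign, so those reversals need the length term. Over both fits and each library left out in turn, the ranges were -0.27 to 0.078 for NR2F6, -0.20 to 0.17 for RARG, -0.19 to 0.20 for PRMT1, -0.18 to 0.23 for GPS2, -0.056 to 0.31 for MED25, -0.36 to 0.063 for NCOA3 and -0.33 to 0.15 for MED14. They were -0.56 to 0.037 for NR3C1, -0.0079 to 0.31 for MED24 and -0.030 to 0.38 for MED16. The cause of these changes was not tested. RARB, THRB and NR5A2, under 1 CPM in the controls, are limited by depth.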

Other observations

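Nuclear receptor genes outside the 32 were sparse. Of 20 further receptors 10 had an entry, all with a mean under 4 CPM in both groups. As fitted 1 was higher and 1 lower, against 18.3% and 19.7% of all entries. The orphan receptor gene ESRRB had 0, 14 and 9 counts in the controls and 87, 76 and 95 counts in the overexpressing libraries (log2 fold change 3.56, SE 0.72, edgeR adjusted p = 0.0041; corrected 3.43, adjusted p = 0.0080). Its relative ESRRG had 1.10 ± 0.08 CPM in the controls and 0.521 ± 0.158 CPM with overexpression (SD, n = 3 each). The log2 fold change was -1.08 (edgeR adjusted p = 0.016), or -0.67 corrected (adjusted p = 0.12). The adrenal receptor gene NR0B1 did not pass as fitted (-0.29) and was lower after the correction (-0.57, edgeR adjusted p = 0.036).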
